A study of Mus musculus with 8 samples.

Results

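The comparison set liver RNA from fasted HRD1Alb mice against liver RNA from fasted WT mice, with 2 libraries in each group, and therefore 4 of the 8 libraries of the series. Members were all genes that passed a filter on low counts in these 4 libraries, which kept 13945 of the 23337 gene symbols counted. The mice were C57BL/6 animals aged 12 weeks, and the liver was taken after an overnight fast. HRD1Alb mice carry floxed alleles of HRD1 that are deleted by a Cre recombinase under the albumin promoter, which acts from early liver development onwards, and their genotype is labelled Hrd1-/-. The WT mice, labelled control in the plots here, carry the floxed alleles without Cre as the study describes its controls, so the floxed alleles would be shared by both groups. The remaining 4 libraries came from WT and HRD1Alb mice that were fasted and then refed for 4 h, and they are used below only to set the fasted differences beside those of other mice. Nothing in the labels ties a library to an individual mouse, so all p-values measure the spread between libraries, part of which may be technical.

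HRD1, whose gene has the symbol Syvn1, is an E3 ubiquitin ligase of the endoplasmic reticulum (ER) membrane. Together with its partner SEL1L it carries misfolded proteins out of the ER for destruction by the proteasome, a route called ER-associated degradation (ERAD). Proteins that accumulate in the ER are sensed by the unfolded protein response (UPR), whose sensors IRE1α, ATF6 and PERK raise chaperones, ERAD components and, through the factors ATF4 and CHOP, genes of amino acid synthesis and stress. The fasted liver burns fatty acids, makes ketone bodies and glucose, and keeps lipid synthesis low, while it goes on secreting most plasma proteins.

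Total counts in the fasted libraries ranged from 45726859 to 49117080. Scaled by these totals alone, 3 counts, taken here as the smallest detectable level, correspond to at most 0.0656 CPM (counts scaled to a common library total). All levels are CPM after TMM normalisation, which scales libraries so that the typical gene does not differ. They are not corrected for gene length, and levels are therefore compared between libraries only. Log2 fold changes are HRD1Alb minus WT and are followed by their standard error, and a gene is called when its adjusted p in edgeR's quasi-likelihood test, corrected by the Benjamini-Hochberg method over all tested genes, was under 0.05. The WT replicates differed at least 2-fold in 711 tested genes and the HRD1Alb replicates in 209, while in the refed HRD1Alb group 2816 genes did, and that group's replicate 2 stood apart from all other libraries. The 50 genes with the highest counts took 36.9% and 38.2% of all counts in the WT libraries and 31.9% and 31.3% in the HRD1Alb libraries. Alb, which encodes albumin and marks hepatocytes, was the largest of them in all 4 libraries. Y-linked Ddx3y was at 116 and 108 CPM in WT and 120.0 and 93.5 CPM in HRD1Alb liver and Xist was at 0.504 CPM or less, so the sexes of the animals, which are not labelled, did not separate the groups. The 4 globin genes looked for were listed at 0 in all 4 libraries, and Ass1, a urea cycle gene of hepatocytes, was at 0.986 CPM or less. Whether these low values reflect expression or the way reads were counted was not tested.

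Syvn1 itself fell in fasted HRD1Alb liver. It stood at 107 and 96.3 CPM in the WT libraries and at 32.3 and 31.2 CPM in the HRD1Alb libraries, 3.20-fold lower (log2 fold change -1.68 ± 0.10, adjusted p = 0.00497), and the groups did not overlap. The gene lies at chr19:6046576-6053712 on the plus strand (mm10). Which of its exons are deleted was not known here, so reads from the remaining exons may be counted, and liver cells in which the albumin promoter is silent keep the gene. In refed liver the same gene was at 650.1 and 311 CPM in WT and 465 and 135 CPM in HRD1Alb libraries, and the groups overlapped there.

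Across all 13945 tested genes, 1152 were called higher in fasted HRD1Alb liver (8.26%) and 881 were called lower (6.32%), together 14.6%. Among the genes called higher 673 differed at least 2-fold, and among those called lower 146 did. By a looser rule, a 2-fold difference with an unadjusted p below 0.05, 1119 genes were higher (8.02%) and 213 lower (1.53%). Without adjustment or test, the HRD1Alb libraries both lay above the WT libraries for 4673 genes (33.5%) and both below for 4341 genes (31.1%), and these shares are the background for the statements on overlap below. Counts of called list members are likewise to be read against 8.26% higher and 6.32% lower. A gene with few counts in WT liver could pass the filter only through the HRD1Alb libraries, so counts over genes with at least 10 counts in each library are given for lists that hold several such genes. An exact permutation test of 2 libraries against 2 cannot give a p below 0.333, so every call rests on the spread that the model shares between genes. The counts of calls moved widely when 1 library was left out, because the spread then rests on the other group's pair alone. Without an HRD1Alb library that is the WT pair, which was the more variable. With all 8 libraries in 1 model 132 genes were called higher and 62 lower, all of them among the 2033 calls. The signs of the 2033 calls did not change in any of these fits in which the gene was tested. Scaling by library totals alone moved the median log2 fold change of all genes from 0.00943 to 0.354 and gave 4118 genes higher and 263 lower, so that 94% of calls were higher in place of 56.7%. Directions of small changes below are therefore relative to the TMM scale, and counts under library totals are given where they turn a list.

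**Figure D1:**
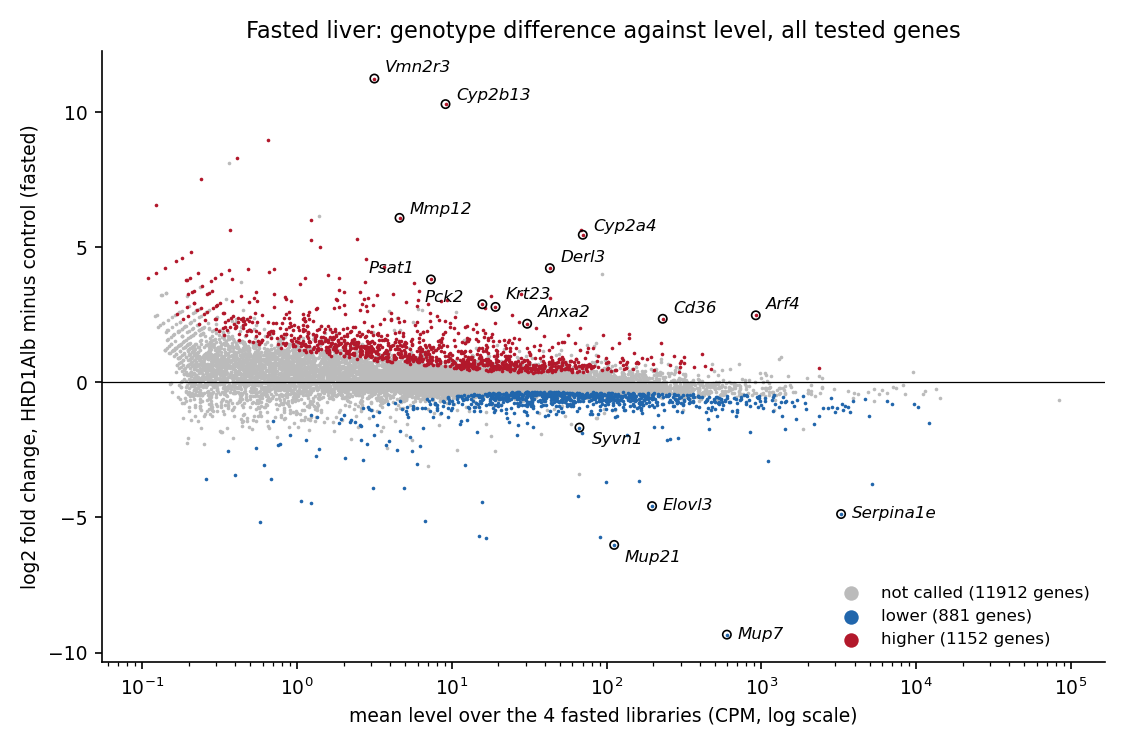
Each point is a tested gene, placed by its mean level over the 4 fasted libraries (CPM, log scale) and its log2 fold change in HRD1Alb against WT fasted liver, with 1152 genes called higher in red, 881 called lower in blue and 11912 not called in grey. Genes called higher reach low levels and large folds, whereas genes called lower include abundant ones such as Apoa1 and Mup3.

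Several targets of the transcription factor ATF4 rose. Pck2, which encodes the mitochondrial phosphoenolpyruvate carboxykinase and lies at chr14:55540266-55551242, was at 3.74 and 3.76 CPM in WT and 26.6 and 28.9 CPM in HRD1Alb liver, a 7.40-fold rise (log2 fold change 2.89 ± 0.12, adjusted p = 0.00161). Of 20 tested targets of the PERK-ATF4-CHOP branch, 6 were called higher and none lower, against 8.26% and 6.32% of all genes, and their median log2 fold change was 0.41 against 0.00943 over all genes. Fgf21, a hormone that the fasted liver secretes, rose from 13.7 and 14.1 CPM to 52.6 and 58.9 CPM (log2 fold change 2.01 ± 0.10, adjusted p = 0.00288). Ddit3, which encodes CHOP, rose from 6.43 and 5.42 CPM to 15.4 and 14.7 CPM, and Trib3, a pseudokinase induced by CHOP, from 18.3 and 21.3 CPM to 45.1 and 42.1 CPM. Nupr1, a small stress-response factor, was at 0.771 and 2.54 CPM in WT and 12.4 and 12.4 CPM in HRD1Alb liver, and Vldlr, a lipoprotein receptor, at 2.70 and 6.97 CPM in WT and 18.7 and 21.8 CPM in HRD1Alb liver. For all 6 genes both HRD1Alb libraries were above both WT libraries.

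The other members of that list did not pass the test. Atf4 itself was at 114 and 119.6 CPM in WT and 118 and 153 CPM in HRD1Alb liver (adjusted p = 0.333). Atf3, an early stress factor, was at 0.482 and 2.96 CPM in WT and 9.47 and 12.8 CPM in HRD1Alb liver (log2 fold change 2.69 ± 0.68, adjusted p = 0.0510), with the groups apart. Chac1, a glutathione-degrading enzyme of the same branch, was at 2.53 and 3.85 CPM in WT and 1.28 and 2.22 CPM in HRD1Alb liver (adjusted p = 0.149), and Ddit4, Gdf15 and Cebpb, with the HRD1Alb libraries above the WT libraries, had log2 fold changes of 1.38, 1.52 and 0.60. Sesn2, Ppp1r15a and Eif4ebp1 had log2 fold changes of -0.13, -0.092 and 0.035. Of the 6 called members, 3 were also called when all 8 libraries shared 1 model.

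Enzymes that make serine, asparagine, proline and mitochondrial one-carbon units had 6 members called higher (46.2%) and 3 called lower (23.1%) of 13 tested, against 8.26% and 6.32% of all genes. Their median log2 fold change was 1.52, and 0.992 over the 12 members with at least 10 counts in each library, of which the same numbers were called. Psat1, which makes phosphoserine, rose 14.0-fold, from 0.988 and 0.963 CPM in WT to 12.96 and 14.4 CPM in HRD1Alb liver (log2 fold change 3.81 ± 0.17, adjusted p = 0.00222). Asns, asparagine synthetase, rose from 4.82 and 2.16 CPM to 16.2 and 16.01 CPM. Aldh1l2, Mthfd1l and Mthfd2, which are mitochondrial folate enzymes, rose as well. Aldh1l2 was at 0.506 and 0.423 CPM in WT and 4.90 and 4.43 CPM in HRD1Alb liver, Mthfd1l at 0.964 and 1.39 CPM in WT and 4.38 and 5.50 CPM in HRD1Alb liver, and Mthfd2 at 1.398 and 1.01 CPM in WT and 3.58 and 5.46 CPM in HRD1Alb liver. Aldh18a1, which makes proline precursors, rose from 0.651 and 0.916 CPM to 4.44 and 5.37 CPM. The 3 members that fell were abundant genes of the liver's folate and glycine metabolism. Aldh1l1, the cytosolic counterpart of Aldh1l2, went from 940.0 and 1093 CPM to 671 and 617 CPM (log2 fold change -0.66 ± 0.13). Shmt1 and Shmt2, the latter also mitochondrial, had log2 fold changes of -0.57 ± 0.13 and -0.41 ± 0.095. The summed level of the list was lower in HRD1Alb liver, 1535 and 1488 CPM against 1952 and 2303 CPM. Phgdh, the enzyme before Psat1, was too low to be tested, at 0.0723 and 0.0704 CPM in WT and 0.291 and 0.144 CPM in HRD1Alb liver. The 3 decreases were not called when library totals alone were used.

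Among 17 tested amino acid transporters 4 were called higher (23.5%) and 1 lower (5.88%), and none with all 8 libraries in 1 model. Slc7a1, the cationic amino acid carrier CAT1, rose from 0.771 and 1.13 CPM to 3.74 and 3.10 CPM, Slc38a1 from 0.844 and 0.728 CPM to 2.61 and 2.36 CPM and Slc1a5 from 4.02 and 3.99 CPM to 7.61 and 7.59 CPM. Slc3a2, the shared heavy chain of several carriers, had a log2 fold change of 0.45 ± 0.11, and the glycine carrier Slc6a9 fell by 1.08 on the log2 scale. Cytosolic aminoacyl-tRNA synthetases, which ATF4 is known to regulate as well, had a single call in each direction, 5% of the list, against 8.26% and 6.32% of all genes. Of 20 tested, Sars was called higher (log2 fold change 0.39 ± 0.092), Tars was called lower (-0.67 ± 0.094), and the median of the list was -0.14, while with library totals alone 7 were called higher and 1 lower.

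Promoter sequences of these genes are shown because ATF4 acts through a short composite element of C/EBP and ATF sites. The letters TGATGNAA, the core of that element, were searched on both strands in RefSeq windows (GRCm38.p6) that run from 250 bases before to 50 bases after a gene's start. Windows existed for 9919 of the 13945 tested genes (71.1%), and the letters occurred in 34 of 821 genes called higher (4.14%), in 13 of 634 called lower (2.05%) and in 284 of all 9919 (2.86%). Of 18 PERK-ATF4-CHOP targets with a window, 7 held the letters (Atf3, Trib3, Chac1, Nupr1, Vldlr, Fgf21 and Pck2), and 5 of these were called. Of 12 aminoacyl-tRNA synthetases with a window, 5 held them too (Aars, Gars, Iars, Tars and Yars). Among those only Tars was called, and it was lower. The serine, asparagine, proline and one-carbon list had the letters in 2 of 12 genes with a window (Asns and Pycr1), and only Asns was called. Amino acid transporters had them in 2 of 11 (Slc7a7 and Slc1a4), and neither was called. The stretches below, all from genes called higher, are written 5′ to 3′ on the strand of the gene, with the matching letters or their reverse complement in capitals.
Pck2, chr14:55540113-55540220, plus strand: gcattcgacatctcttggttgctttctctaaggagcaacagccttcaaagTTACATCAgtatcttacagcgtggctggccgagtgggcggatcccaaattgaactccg
Fgf21, chr7:45615572-45615679, minus strand: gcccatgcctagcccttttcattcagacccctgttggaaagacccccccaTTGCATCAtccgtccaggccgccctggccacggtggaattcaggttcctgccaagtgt
Nupr1, chr7:126625562-126625591, minus strand: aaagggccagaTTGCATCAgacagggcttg
Vldlr, chr19:27216809-27216838, plus strand: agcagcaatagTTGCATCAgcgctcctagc
Asns, chr6:7693214-7693243, minus strand: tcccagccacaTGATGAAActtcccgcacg
In Pck2, Fgf21, Nupr1 and Vldlr the match lay on the opposite strand, 95, 131, 102 and 192 bases before the start, and in Asns it lay on the gene's own strand, 15 bases before it. Fgf21, Nupr1 and Vldlr held the same 8 letters, TTGCATCA. These matches describe the sequence, and no binding was measured.

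Genes of ERAD itself moved in both directions. Of 22 tested members 2 were called higher (9.09%) and 6 lower (27.3%), the latter including Syvn1, against 8.26% and 6.32% of all genes. Derl3, a derlin that is found mainly in secretory cells and takes part in retrotranslocation, rose most. It went from 5.78 and 2.96 CPM to 93.9 and 69.2 CPM, an 18.7-fold rise (log2 fold change 4.22 ± 0.33, adjusted p = 0.00699). Erlec1, an ER lectin of the same route, rose by a log2 fold change of 0.48 ± 0.088. The related derlin Derl2 fell from 81.2 and 74.5 CPM to 54.7 and 53.3 CPM. Vcp, the ATPase that pulls substrates into the cytosol, fell from 117 and 119 CPM to 64.4 and 71.8 CPM (log2 fold change -0.80 ± 0.10, adjusted p = 0.0139), and its cofactor Nploc4 from 145 and 134 CPM to 80.3 and 82.7 CPM. Ubxn4, which tethers Vcp to the ER, had a log2 fold change of -0.66 ± 0.11.

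HRD1's closest partners were not called. Sel1l was at 209.6 and 208 CPM in WT and 231 and 227 CPM in HRD1Alb liver (log2 fold change 0.13 ± 0.094, adjusted p = 0.359), Os9 at 321 and 339 CPM in WT and 329 and 326 CPM in HRD1Alb liver, and Derl1 at 166 and 168 CPM in WT and 167 and 165 CPM in HRD1Alb liver. Herpud1, which recruits HRD1 complexes, was at 303 and 161 CPM in WT and 295 and 249 CPM in HRD1Alb liver, with overlapping groups. With all 8 libraries in 1 model no gene of this list was called, and with library totals alone 8 members were called higher and 3 lower.

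Chaperones of the ER are the best known targets of the IRE1α and ATF6 branches. Of 23 tested, 3 were called higher (13%) and 1 lower (4.35%), against 8.26% and 6.32% of all genes, with a median log2 fold change of 0.0082, while with library totals alone 10 were called higher and 1 lower. Hspa5, which encodes the chaperone BiP, was at 950.3 and 986 CPM in WT and 1298 and 1015 CPM in HRD1Alb liver (log2 fold change 0.26 ± 0.15, adjusted p = 0.282). Hsp90b1 was at 1128 and 1102 CPM in WT and 1289 and 928 CPM in HRD1Alb liver, with overlapping groups. P4hb, a protein disulfide isomerase, rose from 1854 and 1968 CPM to 2917 and 2642 CPM, and Dnajc10 and Txndc11, both of ER redox folding, rose by log2 fold changes of 0.41 ± 0.095 and 0.47 ± 0.12. Calr, calreticulin, fell from 869 and 889.8 CPM to 548 and 485 CPM (log2 fold change -0.77 ± 0.12, adjusted p = 0.0179).

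Sensors and transducers of the UPR had 2 members called higher (12.5%) and 1 called lower (6.25%) of 16 tested. Creb3, a membrane-bound transcription factor of the ER and Golgi, rose from 60.2 and 56.5 CPM to 94.4 and 94.4 CPM, and Eif2ak3, which encodes PERK, rose from 19.4 and 22.4 CPM to 28.9 and 30.4 CPM (log2 fold change 0.50 ± 0.11, adjusted p = 0.0345). Eif2ak2, the kinase PKR, was called lower (-0.61 ± 0.12). Xbp1 was at 196 and 232 CPM in WT and 172 and 177 CPM in HRD1Alb liver (adjusted p = 0.144), and Ern1, which encodes IRE1α, at 26.1 and 18.9 CPM in WT and 17.5 and 17.8 CPM in HRD1Alb liver. Counts per gene do not separate spliced from unspliced Xbp1.

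The ER stress element, a longer composite site of these branches, occurred in 18 of the 9919 windows (0.181%), and 7 of the 19 chaperones with a window held it. It stood upstream both of Derl3, which rose, and of Hspa5, which was not called, and both stretches are given for that contrast, with the element or its reverse complement in capitals.
Derl3, chr10:75893192-75893310, plus strand: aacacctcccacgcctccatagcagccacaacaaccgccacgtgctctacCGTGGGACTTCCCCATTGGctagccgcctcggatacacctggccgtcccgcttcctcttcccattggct
Hspa5, chr2:34772020-34772048, plus strand: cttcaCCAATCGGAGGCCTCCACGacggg
The element lay 137 bases before the start of Derl3, on the opposite strand, and 46 bases before that of Hspa5, on the gene's own strand. Syvn1 and Calr, both called lower, held it as well.

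Of 36 tested genes of transport between ER and Golgi 13 were called higher (36.1%) and 1 lower (2.78%), against 8.26% and 6.32% of all genes, and 25 had both HRD1Alb libraries above both WT libraries, against 33.5% of all genes. Arf4, a small GTPase of the early secretory pathway at chr14:26638074-26665084, rose 5.57-fold, from 278 and 282 CPM to 1711 and 1406 CPM (log2 fold change 2.48 ± 0.14, adjusted p = 0.00497). Arf1, its close relative, rose from 189.6 and 207 CPM to 315 and 311 CPM. Kdelr3, a receptor that returns escaped chaperones to the ER, rose from 0.0964 and 0.352 CPM to 5.19 and 5.59 CPM, and Kdelr2 from 111 and 130.3 CPM to 196 and 202 CPM.

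Subunits of the COPI coat, which carries proteins back to the ER, were among the called genes. Copa was at 296 and 290.2 CPM in WT and 433 and 438 CPM in HRD1Alb liver, Copb2 at 237 and 240.1 CPM in WT and 402 and 386 CPM in HRD1Alb liver, Copg at 117 and 119.9 CPM in WT and 201 and 195 CPM in HRD1Alb liver and Cope at 88.2 and 96.0 CPM in WT and 161 and 166 CPM in HRD1Alb liver, with log2 fold changes from 0.57 to 0.83. Copz2, Sec13, Sar1a, Arfgap1 and Arfgap3 were the remaining genes called higher. Lman1, a cargo receptor for glycoproteins that leave the ER, was called lower, with a log2 fold change of -0.44 ± 0.10. Surf4, another cargo receptor, was at 330.2 and 352 CPM in WT and 323 and 339.9 CPM in HRD1Alb liver and was not called. The summed level of the 36 genes was 4672 and 4695 CPM in WT and 7191 and 6725 CPM in HRD1Alb liver. Arf4 alone made up 278 and 282 CPM of these sums in WT and 1711 and 1406 CPM in HRD1Alb liver. The median log2 fold change of the list was 0.29. With all 8 libraries in 1 model 2 of the 13 were called, and with library totals alone 27 genes were called higher.

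**Figure D2:**
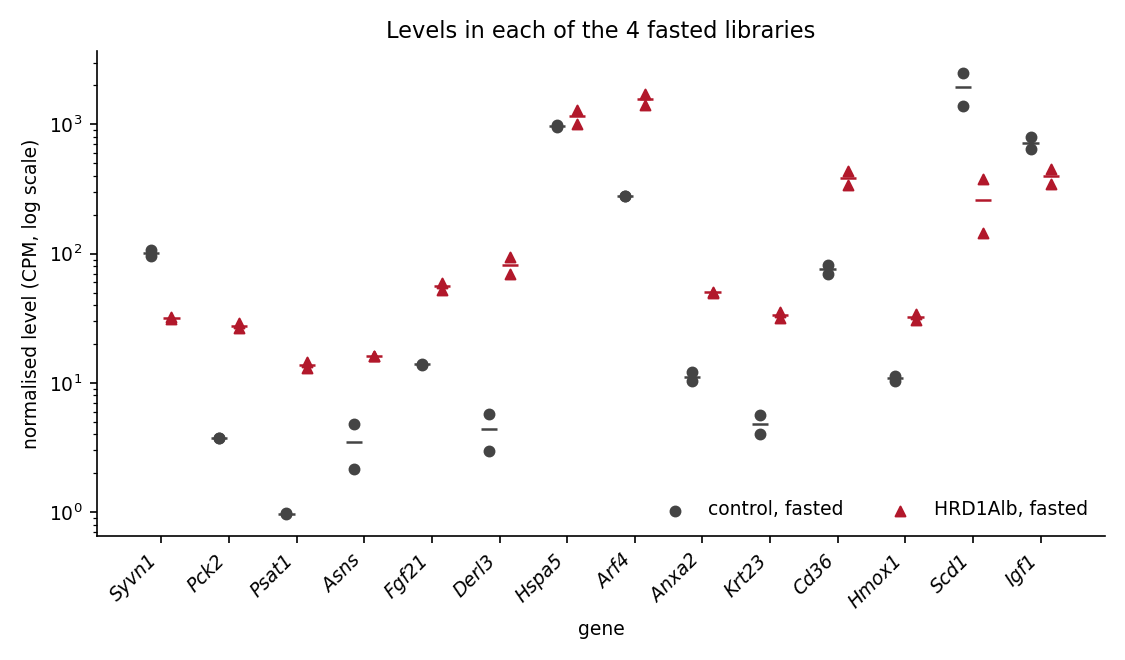
Normalised levels (CPM, log scale) of 14 genes in the 4 fasted libraries, with circles for WT (control), triangles for HRD1Alb and bars for the mean of each pair. Syvn1, Scd1 and Igf1 lie lower in both HRD1Alb libraries, and the other genes lie higher in both, Hspa5 by the narrowest margin.

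The mRNAs of proteins that the study treats as HRD1 substrates, and of AMPK and AKT kinases, gave 2 calls. Entpd5, an ER nucleotidase, was at 545 and 446 CPM in WT and 399 and 390.1 CPM in HRD1Alb liver (log2 fold change -0.33 ± 0.13, adjusted p = 0.141). Cpt2, which admits long-chain acyl groups to the mitochondrial matrix, was at 382 and 325 CPM in WT and 289 and 262 CPM in HRD1Alb liver, and Hsd17b4, a peroxisomal β-oxidation enzyme, at 1068 and 1027 CPM in WT and 859 and 752 CPM in HRD1Alb liver (adjusted p = 0.0872). For all 3 genes both HRD1Alb libraries were below both WT libraries, as for 31.1% of all genes, and none passed the test. Rmnd1 had at most 0.0387 CPM in any fasted library and was not tested. The study measured Rmnd1 mRNA in liver by qPCR, so this low count need not mean that the gene is silent. Of the 19 tested genes of this list the AMPK subunit Prkaa2 was called lower (-0.49 ± 0.11) and the subunit Prkab2 higher (0.77 ± 0.19), 5.26% each and below the shares over all genes, and Akt1 and Akt2 had log2 fold changes of -0.19 ± 0.093 and -0.12 ± 0.089. With library totals alone 4 members were called higher and 0 lower, and the median log2 fold change of the list moved from -0.191 to 0.155.

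Several genes of fatty acid synthesis and desaturation fell in fasted HRD1Alb liver. Of 25 tested members 9 were called lower (36%) and none higher, against 6.32% and 8.26% of all genes. Their median log2 fold change was -0.32, or 0.025 with library totals alone, and their summed level was 8629 and 9349 CPM in WT and 4702 and 4789 CPM in HRD1Alb liver. Scd1, the stearoyl-CoA desaturase, fell from 1391 and 2506 CPM to 143 and 375 CPM (log2 fold change -2.91 ± 0.51, adjusted p = 0.0229). Elovl3, an elongase that is also male-biased, fell from 548 and 207 CPM to 15.4 and 16.1 CPM. Me1, malic enzyme, fell from 122 and 102 CPM to 46.7 and 51.8 CPM, and Thrsp, a regulator of lipogenesis, from 10.9 and 8.76 CPM to 4.34 and 4.97 CPM. The elongases Elovl2 and Elovl5 of polyunsaturated fatty acids fell too, Elovl2 from 1169.9 and 1546 CPM to 698 and 704 CPM and Elovl5 from 1529 and 1845 CPM to 939.8 and 863 CPM. Agpat2, Agpat6 and Gyk, of glycerolipid synthesis, fell by 0.71, 0.48 and 0.60 on the log2 scale.

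The central enzymes and regulators of that pathway were not called. Fasn, fatty acid synthase, was at 118 and 75.2 CPM in WT and 73.8 and 85.5 CPM in HRD1Alb liver, Acaca, the first committed enzyme, at 23.4 and 25.7 CPM in WT and 18.4 and 21.9 CPM in HRD1Alb liver, and Srebf1 at 31.5 and 28.4 CPM in WT and 24.8 and 30.6 CPM in HRD1Alb liver (adjusted p = 0.575). Mlxipl, which encodes ChREBP, was at 217 and 176 CPM in WT and 114 and 148 CPM in HRD1Alb liver (log2 fold change -0.58 ± 0.17, adjusted p = 0.0670). Scaling by library totals gave 6 genes called lower and 1 higher, and all 8 libraries in 1 model gave 3 called lower.

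Of 27 tested lipid uptake and droplet genes 5 were called higher (18.5%) and 7 lower (25.9%). Cd36, a fatty acid translocase, rose 5.09-fold, from 69.2 and 81.9 CPM to 433 and 337 CPM (log2 fold change 2.35 ± 0.17, adjusted p = 0.00518). Lpl, lipoprotein lipase, rose from 21.1 and 32.4 CPM to 106 and 109.7 CPM, and Hilpda, a droplet protein that inhibits lipolysis, from 3.66 and 4.67 CPM to 14.3 and 11.8 CPM. Fabp7, Vldlr, Cd36, Lpl and Hilpda were the 5 called higher. Fatty acid carriers of the hepatocyte were among the members called lower. Fabp1 fell from 3847 and 3595 CPM to 1869 and 2095 CPM, Fabp2 from 172 and 242 CPM to 111 and 101 CPM, Slc27a2 from 3563 and 3209 CPM to 2351 and 2211 CPM and Slc27a5 from 999.9 and 1036 CPM to 543 and 611 CPM. Cideb, Cidec and Mgll were the other genes called lower. Plin2, the main droplet coat protein of hepatocytes, was at 1518 and 1286 CPM in WT and 1171 and 1241 CPM in HRD1Alb liver and was not called. With library totals alone 11 members were called higher and 4 lower, with all 8 libraries 3 and none, and without WT replicate 1 there were 9 and 6.

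Fatty acid oxidation and ketogenesis are the main fate of fatty acids in the fasted liver. Of 28 tested members 2 were called higher (7.14%) and 1 lower (3.57%), shares near or below those over all genes, or 7 higher and 1 lower with library totals alone. Pdk4, which holds back pyruvate oxidation, rose from 38.9 and 85.6 CPM to 203 and 227 CPM, and Cyp4a31 from 110.1 and 131 CPM to 371 and 285 CPM. Acaa1b, a peroxisomal thiolase, fell from 2287 and 1875 CPM to 1157 and 1130.0 CPM. Cpt1a, the entry step of mitochondrial oxidation, was at 1081 and 1181 CPM in WT and 1023 and 951 CPM in HRD1Alb liver (adjusted p = 0.296). Ppara, the receptor that drives this programme, was at 519 and 420.5 CPM in WT and 322 and 359 CPM in HRD1Alb liver (log2 fold change -0.47 ± 0.14, adjusted p = 0.0752). The cholesterol pathway had 1 call among 24 tested members, Tm7sf2, a sterol reductase that fell from 126 and 137 CPM to 55.9 and 75.9 CPM, whereas library totals alone gave 9 called higher and 1 lower, and leaving out WT replicate 1 gave 11 and 1.

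Of 21 tested genes of bile acid synthesis and transport 10 were called lower (47.6%) and 2 higher (9.52%), against 6.32% and 8.26% of all genes, and the median log2 fold change of the list was -0.50. Cyp7a1, the rate-limiting enzyme of the classical route, fell from 262 and 357 CPM to 109 and 84.7 CPM (log2 fold change -1.67 ± 0.20, adjusted p = 0.0124), Cyp8b1 from 1933 and 1868 CPM to 879 and 740.3 CPM and Cyp27a1 from 621 and 629.7 CPM to 346 and 322 CPM. Cyp7b1, which is male-biased as well, was at 325 and 43.8 CPM in WT and 14.4 and 14.1 CPM in HRD1Alb liver, and its WT replicates differed more from each other than WT replicate 2 did from the HRD1Alb libraries on the linear scale. The canalicular exporter Abcb11 fell from 315 and 316 CPM to 198 and 204 CPM, and the uptake carriers Slc10a1 and Slco1b2 fell by 0.71 and 0.59 on the log2 scale. Slco1a1 fell from 397 and 433 CPM to 87.0 and 105 CPM, whereas its neighbour Slco1a4 rose from 219 and 317 CPM to 670.3 and 446 CPM. The bile acid receptor gene Nr1h4 (FXR) was called lower, with a log2 fold change of -0.50 ± 0.098, and Nr0b2 (SHP), a repressor that FXR induces, rose from 11.4 and 14.98 CPM to 28.3 and 23.5 CPM. With library totals alone 5 members were called lower and 4 higher, with a median of -0.16, and with all 8 libraries in 1 model 3 were called lower and none higher.

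Glucose metabolism had 6 genes called lower (23.1%) and 2 higher (7.69%) among 26 tested (4 and 3 with library totals alone, none with all 8 libraries). Those that fell included Pcx (pyruvate carboxylase, from 1059.5 and 1214 CPM to 695 and 639 CPM), Ldha, Pklr, Pygl and Ppp1r3c. Gys2, the glycogen synthase of liver, was at 279 and 242 CPM in WT and 208 and 181 CPM in HRD1Alb liver (adjusted p = 0.0738). The gluconeogenic genes Pck1 and G6pc were not called: Pck1 was at 5338 and 4353 CPM in WT and 3497 and 3645 CPM in HRD1Alb liver, and G6pc at 624 and 1003 CPM in WT and 768 and 938 CPM in HRD1Alb liver. Hk3 and Pgm1 were called higher, Hk3 at 1.01 and 0.822 CPM in WT and 4.75 and 2.94 CPM in HRD1Alb liver.

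Of 29 tested genes of the urea cycle and of amino acid breakdown, 10 were called lower (34.5%, against 6.32% of all genes) and none higher. With library totals alone there were 6 lower and 2 higher, and with all 8 libraries 1 lower. Bhmt, which remethylates homocysteine, fell from 2751 and 3876 CPM to 1535 and 1243 CPM (log2 fold change -1.25 ± 0.21, adjusted p = 0.0209). Gldc, which cleaves glycine, fell from 406 and 372 CPM to 188 and 179.6 CPM, Otc, of the urea cycle, from 432 and 427 CPM to 250.4 and 271 CPM, and Hpd, of tyrosine breakdown, from 3003 and 4095 CPM to 1993 and 1723 CPM. Aass, Hal, Gls2, Prodh2, Sdsl and Uroc1 were the other genes called lower. Cps1, the first enzyme of the urea cycle, was at 5780.3 and 5886 CPM in WT and 6294 and 3429.5 CPM in HRD1Alb liver, with overlapping groups.

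Several abundant genes of secreted plasma proteins fell. Hp, haptoglobin, went from 5001 and 5225 CPM to 2411 and 2367 CPM (log2 fold change -1.10 ± 0.13, adjusted p = 0.0124). The fibrinogen chains Fga, Fgb and Fgg fell by 1.04, 0.94 and 0.96 on the log2 scale, Fga from 3602 and 5491 CPM to 1985 and 2434 CPM. Crp and Orm1 had log2 fold changes of -0.69 ± 0.11 and -0.52 ± 0.12. Lcn2, lipocalin 2, rose from 11.3 and 12.7 CPM to 43.1 and 25.3 CPM, and Mt1, a metallothionein, from 153 and 148 CPM to 359 and 254 CPM, so that of 19 tested acute phase and metallothionein genes 6 were called lower (31.6%) and 2 higher (10.5%). With library totals alone 3 were lower and 4 higher, without WT replicate 2 there were 8 and 5, and with all 8 libraries none was called. Hepatocyte markers had 2 of 7 tested members called lower (28.6%) and none higher, and no call with all 8 libraries. Log2 fold changes of that list ran from -1.75 to 0.164. The 2 called were Apoa1 and Ttr. Apoa1 fell from 12280.2 and 14782 CPM to 6880.4 and 7374 CPM and Ttr from 4685 and 4742 CPM to 2493 and 2536 CPM. Alb was at 97708 and 106988 CPM in WT and 64118 and 66458 CPM in HRD1Alb liver (log2 fold change -0.65 ± 0.21, adjusted p = 0.0852).

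**Figure D3:**
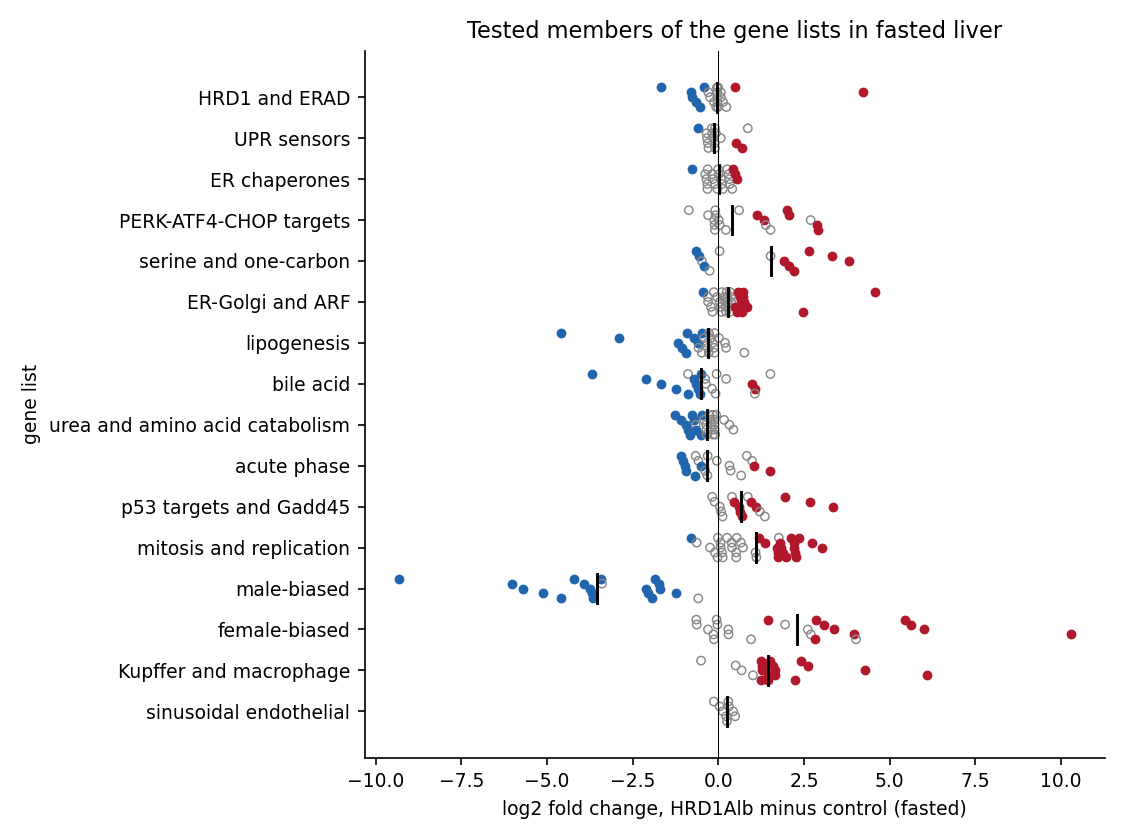
Log2 fold changes (HRD1Alb minus WT, fasted) of the tested members of 16 gene lists, with red for genes called higher, blue for genes called lower, open circles for genes not called and a black bar for the median of the list. The male-biased list lies almost wholly to the left (median -3.55), and the macrophage and female-biased lists lie mostly to the right (medians 1.45 and 2.28, or 1.46 and 0.97 over members with at least 10 counts in each library).

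Genes that differ between the livers of male and female mice held the largest decreases. The sexual bias of mouse liver is set by the pattern of growth hormone secretion, pulsatile in males and more continuous in females, and acts through STAT5B and repressors such as BCL6 and CUX2. Of 20 tested male-biased genes 18 were called lower and none higher, under TMM and under library totals alike (90%, against 6.32% of all genes), 8 were called with all 8 libraries in 1 model, and their median log2 fold change was -3.55. Mup7, a major urinary protein, fell from 2244 and 143 CPM to 1.59 and 2.09 CPM (log2 fold change -9.34 ± 1.51, adjusted p = 0.0199), and Mup21 from 245 and 196 CPM to 1.57 and 5.19 CPM. Mup3, the most abundant of the family, fell from 10455 and 8883 CPM to 446 and 995 CPM, and Mup20 from 1182 and 1466 CPM to 291 and 444 CPM. The Mup genes are near-identical copies in a cluster on chromosome 4, so reads could be split between them, but all Mup genes together took 1.32% and 0.934% of counts in WT and 0.0833% and 0.165% in HRD1Alb liver.

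Male-biased genes outside the Mup cluster fell too. Hsd3b5, a steroid dehydrogenase, went from 9.83 and 16.4 CPM to 0.155 and 0.577 CPM, Cyp4a12a from 445 and 155 CPM to 23.2 and 23.9 CPM and its near copy Cyp4a12b from 159 and 89.8 CPM to 5.04 and 8.35 CPM. Cyp2d9 fell from 2281 and 2079 CPM to 447 and 870.5 CPM, Gstp1 from 503 and 432 CPM to 105 and 122 CPM, C6, a complement component, from 269 and 158 CPM to 43.7 and 68.0 CPM and Ugt2b1 from 778 and 681 CPM to 274 and 339 CPM. Selenbp2 was at 215 and 27.8 CPM in WT and 6.74 and 16.2 CPM in HRD1Alb liver (adjusted p = 0.0656), and Susd4 at 19.0 and 5.40 CPM in WT and 7.03 and 9.21 CPM in HRD1Alb liver with overlapping groups. These were the only tested male-biased genes that were not called.

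Of 24 tested female-biased genes 10 were called higher (41.7%, against 8.26% of all genes) and none lower, with a median log2 fold change of 2.28. Several of them were near 0 in WT liver and were tested only through the HRD1Alb libraries, and of the 19 with at least 10 counts in each library 5 were called higher, with a median of 0.97. With all 8 libraries 5 were called, and without WT replicate 2 there were 16. Cyp2b13 had 0 and 1 counts in the WT libraries and 843 and 1112 in the HRD1Alb libraries, a ratio of 1535 with a 95% counting interval from 275 to 60650. Hao2, an oxidase of hydroxy acids, had 0 and 3 counts in WT and 102 and 159 in HRD1Alb liver, a ratio of 68.3 (23.1 to 333). Cyp2a4 rose from 0.554 and 5.66 CPM to 202 and 71.8 CPM and Cyp2a22 from 1.66 and 3.80 CPM to 151 and 119 CPM (log2 fold change 5.62 ± 0.38, adjusted p = 0.00518). Sult3a1, Sult1e1, Cyp3a44, Slc22a27, Ntrk2 and Cyp2b10 were the other genes called, Cyp2b10 at 70.1 and 59.8 CPM in WT and 233 and 119 CPM in HRD1Alb liver. Several of these belong to families of close copies, so single members are less certain than the group.

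The other female-biased genes did not pass the test, and the WT replicates differed for many of them. Cyp2b9 was at 0.675 and 21.1 CPM in WT and 191 and 161 CPM in HRD1Alb liver (adjusted p = 0.0731). Cux2, itself a female-biased repressor, was at 1.08 and 10.4 CPM in WT and 6.97 and 3.46 CPM in HRD1Alb liver. Prlr, the prolactin receptor, was at 108 and 178 CPM in WT and 87.0 and 96.9 CPM in HRD1Alb liver, and Cyp17a1 at 66.8 and 79.9 CPM in WT and 78.0 and 65.5 CPM in HRD1Alb liver. Summed over each list, male-biased genes were at 20150 and 15040 CPM in WT and at 1772 and 3044 CPM in HRD1Alb liver, and female-biased genes at 421 and 660.5 CPM in WT and at 1326 and 865 CPM in HRD1Alb liver. WT replicate 2 thus stood nearer to the HRD1Alb libraries than WT replicate 1 in both sums, and its part in the differences was not tested.

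**Figure D4:**
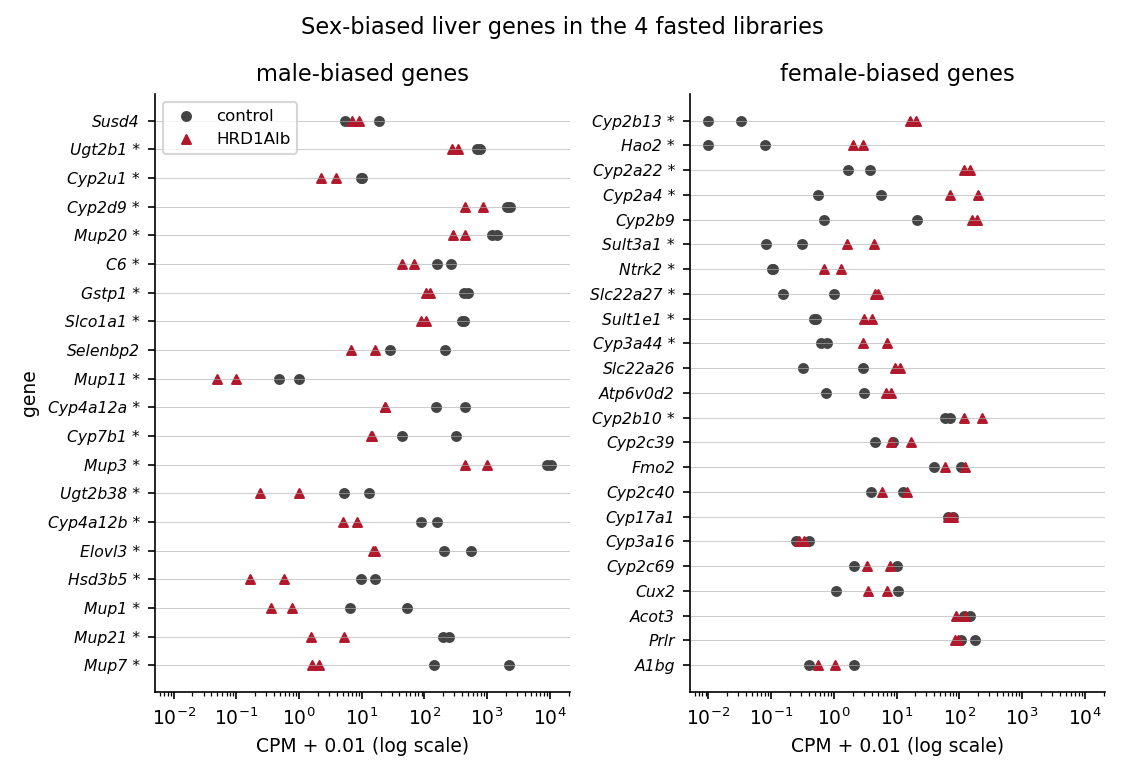
Levels (CPM plus 0.01, log scale) of the 20 tested male-biased genes (left) and of 23 of the 24 tested female-biased genes (right) in the 4 fasted libraries, with circles for WT (control), triangles for HRD1Alb and an asterisk for called genes. Of the 20 male-biased genes 18 are called lower, and of the 24 female-biased genes 10 are called higher. Several genes in the lower rows overlap, while Prlr, which is not called, has both HRD1Alb libraries below both WT libraries.

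Of 19 tested genes of growth hormone signalling 3 were called lower: Ghr, the growth hormone receptor, fell from 338 and 356 CPM to 201 and 238 CPM (log2 fold change -0.66 ± 0.12, adjusted p = 0.0248), Igf1, the main hormone it induces, from 649 and 793 CPM to 346 and 456 CPM, and Igfals, which stabilises IGF1 in blood, from 76.1 and 99.6 CPM to 32.8 and 50.6 CPM. These 3 calls are 15.8% of the list. With library totals alone none of the 3 was called and 3 other members were called higher. The median log2 fold change of the list was then 0.031 in place of -0.32. With all 8 libraries no member was called, and without WT replicate 1 the median was -0.50. Stat5b was at 69.1 and 76.0 CPM in WT and 55.8 and 63.1 CPM in HRD1Alb liver, and Socs2, a STAT5 target, at 42.1 and 68.6 CPM in WT and 17.0 and 36.8 CPM in HRD1Alb liver (adjusted p = 0.123). Bcl6 was at 23.4 and 96.3 CPM in WT and 20.2 and 11.5 CPM in HRD1Alb liver, with the WT replicates further apart than the 2 groups' replicates 1. The STAT letters TTCNNNGAA occurred in 8.77% of windows of genes called higher, in 9.46% of those called lower and in 8.53% of all windows.

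Of 18 tested p53 targets and Gadd45 genes 9 were called higher (50%, against 8.26% of all genes) and none lower, and 2 were called with all 8 libraries in 1 model. Trp53inp1 rose from 151 and 113 CPM to 246 and 263 CPM, Gadd45b from 9.69 and 12.0 CPM to 24.9 and 21.6 CPM, Phlda3 from 0.578 and 0.798 CPM to 5.13 and 3.70 CPM and Eda2r from 0.386 and 0.329 CPM to 5.07 and 2.20 CPM. Cdkn1a, which encodes p21, was at 70.8 and 22.4 CPM in WT and 130.3 and 108 CPM in HRD1Alb liver (log2 fold change 1.35 ± 0.49, adjusted p = 0.113), and Mdm2 at 44.6 and 39.5 CPM in WT and 47.4 and 44.0 CPM in HRD1Alb liver. Gadd45g was at 29.8 and 127 CPM in WT and 88.3 and 117 CPM in HRD1Alb liver, with WT replicate 1 below the other 3 libraries.

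Of 38 tested genes of mitosis and DNA replication 17 were called higher (44.7%) and 1 lower (2.63%), against 8.26% and 6.32% of all genes. Several were near 0 in WT liver, and of the 32 with at least 10 counts in each library 12 were called higher and 1 lower, with a median log2 fold change of 0.62 in place of 1.09. Cdk1, the mitotic kinase, rose from 1.23 and 1.34 CPM to 4.78 and 4.63 CPM (log2 fold change 1.87 ± 0.21, adjusted p = 0.0121), Mki67, the proliferation marker, from 1.11 and 1.74 CPM to 5.46 and 4.02 CPM, Top2a from 0.554 and 1.06 CPM to 3.33 and 2.96 CPM and Ccnb1 from 0.121 and 0.117 CPM to 1.05 and 0.919 CPM. Mcm4, a replication helicase subunit, fell from 4.89 and 4.93 CPM to 2.65 and 3.03 CPM, and Mcm7 was at 14.8 and 12.6 CPM in WT and 11.3 and 11.8 CPM in HRD1Alb liver. Summed over all 38 genes the level was 91.65 and 94.55 CPM in WT and 123 and 120.4 CPM in HRD1Alb liver, a ratio of 1.31. With all 8 libraries in 1 model none of them was called.

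Targets of NRF2, a factor induced by oxidants, moved in both directions. Hmox1, heme oxygenase, rose from 10.4 and 11.3 CPM to 34.2 and 30.6 CPM (log2 fold change 1.58 ± 0.11, adjusted p = 0.00518), Gstm3 from 9.09 and 5.71 CPM to 56.6 and 26.0 CPM and Gsta1 from 0.145 and 0.211 CPM to 1.67 and 0.811 CPM. Gclm and Txnrd1 fell by 0.51 and 0.43 on the log2 scale, so that of 14 tested members 3 were called higher (21.4%) and 2 lower (14.3%), or 6 higher and none lower with library totals alone and 2 higher and none lower with all 8 libraries. Gclc was at 264 and 285 CPM in WT and 151 and 216 CPM in HRD1Alb liver and was not called (adjusted p = 0.0797).

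Most markers of Kupffer cells and other macrophages rose. Of 19 tested markers 15 were called higher (78.9%) and none lower, against 8.26% of all genes called higher, and 18 of the 19 had both HRD1Alb libraries above both WT libraries. Of the 16 with at least 10 counts in each library 13 were called higher, with a median log2 fold change of 1.46. Clec4f, which is specific to Kupffer cells in liver, rose from 37.6 and 29.3 CPM to 99.9 and 81.4 CPM (log2 fold change 1.44 ± 0.16, adjusted p = 0.0121). The complement genes C1qa, C1qb and C1qc, made by macrophages, rose by log2 fold changes of 1.45 ± 0.11, 1.65 ± 0.14 and 1.60 ± 0.13, C1qa from 14.0 and 12.2 CPM to 37.2 and 34.4 CPM. Csf1r, the receptor of macrophage growth factor, rose from 18.2 and 17.6 CPM to 47.8 and 38.4 CPM, Cd68, a lysosomal protein, from 1.86 and 2.32 CPM to 11.6 and 8.15 CPM and Marco, a scavenger receptor, from 3.45 and 3.19 CPM to 22.1 and 13.1 CPM.

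The largest folds of that list included those of Mmp12, Gpnmb and Trem2. Mmp12, macrophage elastase, was at 0.121 and 0.141 CPM in WT and 14.1 and 4.04 CPM in HRD1Alb liver (log2 fold change 6.08 ± 0.80, adjusted p = 0.0142), Gpnmb at 0.362 and 0.352 CPM in WT and 11.04 and 2.87 CPM in HRD1Alb liver and Trem2 at 0.217 and 0.446 CPM in WT and 2.44 and 1.64 CPM in HRD1Alb liver. HRD1Alb replicate 1 was the higher of the pair for all 3. Cd9 went the other way, at 17.2 and 26.2 CPM in WT and 17.3 and 13.2 CPM in HRD1Alb liver. Its log2 fold change was -0.51 ± 0.23, with overlapping groups. The monocyte marker Ccr2 was at 1.06 and 1.57 CPM in WT and 2.63 and 2.67 CPM in HRD1Alb liver. Ly6c2 was at 0.193 and 0.211 CPM in WT and 0.213 and 0.433 CPM in HRD1Alb liver. None of Cd9, Ccr2 and Ly6c2 was called. The summed level of the list was 161 and 154 CPM in WT and 467 and 351 CPM in HRD1Alb liver, a ratio of 2.60, and no marker of the list was at 0 in all libraries. In bulk liver RNA more cells of a type and more RNA per cell cannot be told apart. With all 8 libraries in 1 model 3 of the 15 markers were called, and without HRD1Alb replicate 2 there were 8. The part of macrophage RNA in the other changes was not tested.

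Markers of other cells of the liver were counted in the same way. None of 9 sinusoidal endothelial markers was called (3 higher with library totals alone), and their sum was 166 and 142 CPM in WT and 189.9 and 166 CPM in HRD1Alb liver. Stab2 was at 41.8 and 31.8 CPM in WT and 43.7 and 42.3 CPM in HRD1Alb liver. Of 25 stellate cell and matrix genes 3 were called higher (Col4a2, Tagln and Lrat) and Fn1 was called lower, Col4a2 at 22.6 and 28.6 CPM in WT and 68.5 and 58.8 CPM in HRD1Alb liver. Col1a1 was at 5.45 and 16.1 CPM in WT and 17.5 and 19.3 CPM in HRD1Alb liver and Col3a1 at 11.2 and 25.0 CPM in WT and 33.1 and 35.6 CPM in HRD1Alb liver, the WT replicates differing more than 2-fold from each other. Of these 25 genes 17 had both HRD1Alb libraries above both WT libraries, against 33.5% of all genes, with a median log2 fold change of 0.67, and 3 and 1 calls are 12% and 4% of the list. The count of those called higher was 9 with library totals alone, 6 without WT replicate 1, 20 without WT replicate 2 and none with all 8 libraries. Of 10 lymphocyte and natural killer cell markers Klrb1c was called higher, from 0.265 and 0.305 CPM to 0.833 and 1.30 CPM, and no marker of that list exceeded 1.30 CPM. The neutrophil markers S100a8 and S100a9 were under 1 CPM in all 4 libraries, and the pancreatic genes Prss2, Ins2 and Pnlip had no counts.

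Of 14 tested bile duct markers and keratins 2 were called higher (14.3%) and none lower, and 5 were called lower without WT replicate 1. Krt23, a keratin of stressed epithelium at chr11:99477974-99493137, rose 6.91-fold, from 5.64 and 4.04 CPM to 31.5 and 35.3 CPM (log2 fold change 2.79 ± 0.18, adjusted p = 0.00497). Krt20 had no counts in the WT libraries and 76 and 63 in the HRD1Alb libraries. That is at least 36.4-fold higher when 3 counts over both WT libraries together are taken as the floor. The bile duct markers Krt7, Krt19, Epcam and Spp1 were not called and had log2 fold changes of -0.77, -1.31, -1.03 and -0.84. The keratins of the hepatocyte itself, Krt8 and Krt18, were not called, Krt8 at 71.8 and 89.3 CPM in WT and 73.9 and 71.6 CPM in HRD1Alb liver. The summed level of the list was 425 and 589 CPM in WT and 454 and 455 CPM in HRD1Alb liver.

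Anxa2, a membrane-binding annexin at chr9:69453620-69491795, rose 4.49-fold, from 10.3 and 12.0 CPM to 49.9 and 50.4 CPM (log2 fold change 2.17 ± 0.11, adjusted p = 0.00288). Of 20 tested annexins and S100 proteins 2 were called higher (10%) and 1 lower (5%), near the shares over all genes. S100a11 was also called higher, from 2.24 and 2.61 CPM to 8.33 and 5.55 CPM, and Anxa7 was called lower (-0.46 ± 0.097). With library totals alone 9 were called higher and none lower, and without WT replicate 2 there were 5 and 2. Anxa5 was at 86.0 and 114 CPM in WT and 155 and 134 CPM in HRD1Alb liver, and S100a10, the binding partner of Anxa2, at 179 and 170.0 CPM in WT and 133 and 102 CPM in HRD1Alb liver (adjusted p = 0.0534). Among 10 tested tubulins Tuba8 was called higher, at 7.66 and 5.82 CPM in WT and 16.8 and 13.6 CPM in HRD1Alb liver.

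Among transcription factors of hepatocyte identity, Cebpa, Nr1h4 and Prox1 were the 3 of 16 called lower (18.8%, against 6.32% of all genes), Cebpa from 242 and 267 CPM to 174 and 191 CPM. With library totals alone none of the 3 was called and 1 other member was called higher. The median log2 fold change of the list was -0.261, or 0.0861 with library totals alone and -0.34 without WT replicate 2. Hnf4a was at 783 and 599 CPM in WT and 544 and 581 CPM in HRD1Alb liver (adjusted p = 0.233). Lect2, a hepatokine, was the sole call among 13 pericentral genes and rose from 42.1 and 47.7 CPM to 79.1 and 83.6 CPM, while Glul, which marks the hepatocytes next to the central vein, was at 820.2 and 774 CPM in WT and 757 and 767 CPM in HRD1Alb liver. Of 16 clock genes Cry1 and Nfil3 were called lower (12.5%), Cry1 from 28.1 and 35.9 CPM to 16.2 and 16.9 CPM and Nfil3 from 57.7 and 85.0 CPM to 37.8 and 40.1 CPM. With library totals alone 3 clock genes were called higher and 1 lower. Per1 was at 38.1 and 12.9 CPM in WT and 27.4 and 45.05 CPM in HRD1Alb liver, with overlapping groups. Times of tissue collection are not given in the labels.

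The 10 largest increases among genes with a mean of at least 1 CPM included 6 that belong to the lists above (Cyp2b13, Mmp12, Hao2, Cyp2a22, Cyp2a4 and Kdelr3) and 4 that do not. Vmn2r3, which is annotated as a vomeronasal receptor at chr3:64257215-64289709, had no counts in either WT library and 345 and 330 counts in the HRD1Alb libraries. That is at least 177-fold higher with 3 counts over both WT libraries together as the floor. Fam19a2, a secreted protein of the nervous system, was at 0.0482 and 0.188 CPM in WT and 4.96 and 4.52 CPM in HRD1Alb liver. Gldn, gliomedin, was at 0.121 and 0 CPM in WT and 3.20 and 1.59 CPM in HRD1Alb liver, and Tmprss7, a membrane serine protease, at 0.121 and 0.0470 CPM in WT and 3.53 and 1.95 CPM in HRD1Alb liver. All 4 are nearly silent in WT liver, so their folds depend on few counts in that group.

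Of the 10 largest decreases 7 were male-biased genes or other Mup genes: Mup7, Mup21, Mup1, Hsd3b5 and Elovl3 from the male-biased list, and Mup12 and Mup14. Mup14 was at 294 and 59.5 CPM in WT and 1.05 and 5.66 CPM in HRD1Alb liver. Serpina1e, a copy of the α1-antitrypsin gene at chr12:103946931-103958975, fell from 6183 and 6458 CPM to 83.9 and 347 CPM (log2 fold change -4.87 ± 0.69, adjusted p = 0.0156), while its near copy Serpina1c was at 2754 and 2938 CPM in WT and 449.7 and 1246 CPM in HRD1Alb liver and was not called (adjusted p = 0.0523). Serpina4-ps1, annotated as a pseudogene of the same cluster, fell from 39.4 and 25.7 CPM to 0.136 and 1.03 CPM. Cpne5, a calcium-dependent membrane-binding protein, was at 3.42 and 1.27 CPM in WT and 0.0968 and 0.108 CPM in HRD1Alb liver.

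The refed libraries show how far the fasted calls recur in libraries that took no part in them. Of the 1152 genes called higher in fasted liver 918 (79.7%) had both refed HRD1Alb libraries above both refed WT libraries and 26 (2.26%) had both below, where 30.5% and 30.2% of the 13945 genes lay above and below. Of the 881 genes called lower 656 (74.5%) had both refed HRD1Alb libraries below and 18 (2.04%) both above. Median log2 fold changes were 1.16 in fasted and 1.10 in refed liver for genes called higher and -0.63 and -0.60 for genes called lower. By list, all 6 PERK-ATF4-CHOP targets, all 6 rising amino acid and folate enzymes, 10 of 10 female-biased genes, 17 of 18 male-biased genes, 14 of 15 macrophage markers and 10 of 10 falling bile acid genes kept their direction without overlap in refed liver. Several other lists did so less often. For ER chaperones the counts were 1 of 3 called higher and 0 of 1 called lower. Among genes called lower they were 3 of 6 for ERAD, 4 of 6 for acute phase and 4 of 7 for lipid uptake. For clock genes and for hepatocyte markers they were 0 of 2 each.

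**Figure D5:**
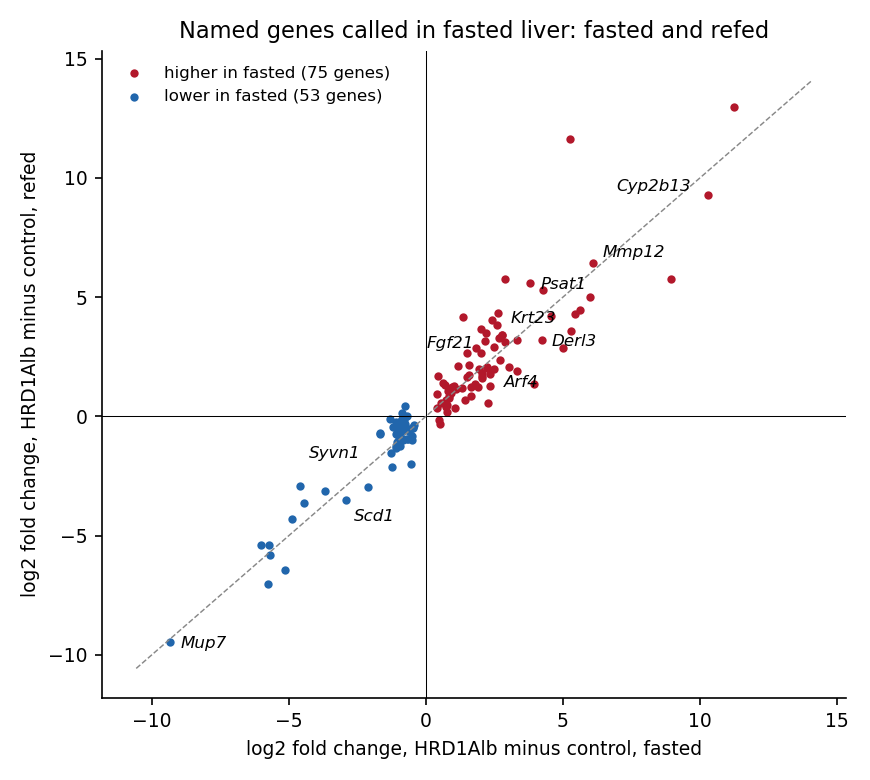
Log2 fold changes (HRD1Alb minus WT) in fasted liver (x axis) and refed liver (y axis) of the genes named by rule that were called in fasted liver and tested in both, 75 called higher (red) and 53 called lower (blue), with a dashed line of equal change. Of these 73 and 50 keep their direction in refed liver, and the values of genes with no counts in WT depend on the fit's prior count.

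Whether feeding changed the effect of genotype was tested as an interaction over all 8 libraries. No gene of 14328 passed an adjusted p of 0.05 in edgeR's quasi-likelihood test (1209 at an unadjusted p under 0.05, smallest adjusted p = 0.116), and of 202 genes named by rule 31 had an unadjusted p under 0.05. The smallest belonged to Ddit3, with log2 fold changes of 1.34 in fasted and 4.17 in refed liver (adjusted p = 0.116 for the difference). Ddit3 was at 16.4 and 11.5 CPM in refed WT and 257 and 247 CPM in refed HRD1Alb liver. Calr went from a fall in fasted liver (-0.77) to 0.45 in refed liver, and Fgf21 had log2 fold changes of 2.01 and 3.67, and neither difference passed the test (adjusted p = 0.544 for each). In the refed libraries alone no gene of 13835 was called in the same kind of test (2934 at an unadjusted p under 0.05, smallest adjusted p = 0.0553), and the HRD1Alb replicates differed widely there. A missed threshold in these tests does not show that the fasted and refed effects are equal.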

How the data were processed

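Liver RNA of 4 fasted and 4 refed libraries was sequenced on an Illumina NextSeq 500. The values are raw counts per gene symbol as deposited, made by the authors from reads on mm10. The submitters' processing notes name cutadapt, STAR, HTSeq and DESeq2, whereas the study's methods name ERANGE, so which made the counts is not settled. Strand and annotation are not given in the sources used here. The files hold no normalised values.

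The fasted libraries alone were fitted in edgeR 4.0.16 (R 4.3.3) with TMM factors, filterByExpr (minimum count 10, minimum total 15) and the quasi-likelihood test, after a check on simulated counts, with Benjamini-Hochberg adjustment at 0.05. Groups came from the labels. Named were Syvn1, 5 genes given with the comparison, the 10 called genes that changed most in each direction at a mean of at least 1 CPM without overlap, and from each gene list up to 5 called members by fold and the 2 most abundant not called. Further list members in the text were chosen after their values were seen. The members and lists were chosen with earlier results of these data known. Alternatives were DESeq2 1.42.0, limma-voom 3.58.1, other scalings and filters, a replicate block, all 8 libraries and leaving out each library. Scaling by library totals alone was added after seeing the data. With 2 replicates a group precision rests on the shared dispersion, and counting intervals cover counting error only. Some genes are not reported here. Coordinates are GENCODE M21 on GRCm38 and promoters RefSeq on GRCm38.p6.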

Additional observations from a re-analysis of the deposited data

How the results depend on the processing

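The main counts of 1152 genes called higher and 881 called lower kept within 1.5 times under RLE factors, limma-voom, no filter on low counts and at least 10 counts in each library. DESeq2 called 1323 lower. With all 8 libraries 132 were called higher and 62 lower, and with library totals alone 4118 higher and 263 lower, and 2041 and 101 by the 2-fold rule. Leaving out each library gave 0 to 1527 called higher, 0 to 1296 called lower, 713 to 1354 at least 2-fold higher and 151 to 332 at least 2-fold lower, with no call without HRD1Alb replicate 1. The replicate block gave 1449 higher and 1204 lower. Deviations of same-numbered libraries correlated at 0.110 over 2 pairs, and nothing in the labels pairs them. Without a filter 1 named gene passed the interaction test in place of 0. No called gene changed sign. Among named genes not called, log2 fold changes that changed sign included, under RLE factors, Gpt2 -0.0040, under DESeq2, Gpt2 -0.0040, with at least 10 counts in each library, Hsp90b1 0.013, Os9 0.0099, Rrm1 0.0059, with all 8 libraries, Gpt2 -0.031, and with library totals alone, Abcc3 0.29, Acot3 0.042, Atf5 0.048, Clock 0.13, Cps1 0.079, Creb3l3 0.24, Cyp2e1 0.089, Cyp4a14 0.016, Ddx3y 0.27, Ei24 0.16, Entpd5 0.014, Fads1 0.12, Hnf4a 0.045, Hpx 0.034, Hsp90b1 0.33, Krt18 0.0051, Lpin2 0.22, Mcm7 0.097, Mthfd1 0.089, Oat 0.18, Onecut2 0.31, Os9 0.33, Plin2 0.13, Rrm1 0.33, S100a8 0.29, Surf4 0.31, Tuba4a 0.27, Tubb2a 0.11, Xbp1 0.054. With each library left out in turn they ranged as follows: Abcc3 -0.18 to 0.057, Cd4 -0.92 to 0.054, Cps1 -0.77 to 0.11, Ddx3y -0.27 to 0.094, Eif2s3y -0.16 to 0.22, Fbp1 -0.16 to 0.25, Gadd45g -0.32 to 1.78, Gpt2 -0.14 to 0.13, Herpud1 -0.16 to 0.74, Hsp90b1 -0.27 to 0.21, Lpin2 -0.60 to 0.61, Onecut2 -0.20 to 0.11, Os9 -0.067 to 0.023, S100a8 -0.48 to 0.49, Slc7a2 -0.11 to 0.30, Surf4 -0.10 to 0.00065, Susd4 -1.23 to 0.57, Tuba4a -0.17 to 0.011. The cause of these shifts was not tested. Depth left genes under 0.0611 to 0.0656 CPM undetectable, on library totals before TMM scaling.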
